A study of Mus musculus with 4 samples.

Results

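Hair cells of the neonatal cochlea have left the cell cycle, and the 9 genes described here encode brakes on that cycle: the cyclin-dependent kinase (CDK) inhibitors Cdkn1b, Cdkn1c, Cdkn2a, Cdkn2b, Cdkn2c and Cdkn2d and the pocket protein genes Rb1, Rbl1 and Rbl2. They were picked by gene symbol from the 23420 genes listed for each replicate. All 9 were listed, and 8 of them had enough reads to be among the 16088 genes tested. Cdkn2a had too few and is described by its reads.

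The RNA came from cochleae of Atoh1-GFP transgenic mice on the CD1 background, dissected at postnatal day 1 and held in organ culture overnight. Their GFP reporter is driven by the Atoh1 enhancer, which marks hair cells. After 3 h with or without 0.5 mM gentamicin, an aminoglycoside antibiotic that kills hair cells, the organs were dissociated and sorted by fluorescence into GFP positive hair cells (HC) and GFP negative non-hair cells (NHC). This gave 4 groups of 3 replicates each: HC control, HC gentamicin, NHC control and NHC gentamicin. All groups share the strain, the transgene, the age and the overnight culture, and the labels do not say how many animals went into a replicate. The NHC groups are a mixture of supporting cells, epithelial ridge cells and cells of the surrounding tissue, without the weakly GFP positive cells, which the sort left out.

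CDK inhibitors hold back the kinases that drive a cell from G1 into DNA replication. INK4 inhibitors (Cdkn2a to Cdkn2d) bind CDK4 and CDK6, whereas the CIP/KIP inhibitors (Cdkn1a, Cdkn1b and Cdkn1c) bind cyclin-CDK complexes more broadly. The pocket proteins RB1, p107 (Rbl1) and p130 (Rbl2) bind E2F transcription factors until these kinases phosphorylate them, and p130 or p107 also forms the DREAM complex that silences cell cycle genes in resting cells. In the organ of Corti, Cdkn1b marks the exit of the sensory precursors from the cycle, and mice without Cdkn2d or Rb1 are known for hair cells that re-enter it.

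Values are the authors' normalized read numbers, which carry an added 1, so that a gene without reads is at 1. They are given per replicate in the order of the replicate numbers, or as mean ± SD over 3 replicates. Log2 differences with their standard errors (SE) come from limma on the log2 normalized read numbers, with all 4 groups in 1 model and two-sided tests. A gene met the criteria, and is then called higher, lower or changed, where p before adjustment was under 0.01 and the fold change exceeded 1.2. The criteria are those of the study. Adjusted p-values are limma's Benjamini-Hochberg values over all 16088 genes. The added 1 makes the fold change of a weakly expressed gene too small. The p-values measure the spread between these replicates, whose origin from separate animals the labels do not give.

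The sorted populations carried the markers of their labels. All 10 hair cell markers listed were higher in HC, none was at 0, and their summed normalized read number was 10435–12897 in the HC replicates against 278–325 in the NHC replicates. Supporting cell markers as a sum did not separate the populations, at 2344–2867 in HC control and 2021–3483 in NHC control. Of these 10 markers, 2 were higher in HC control (Lfng and S100a1) and 2 lower (Cd44 and Hes1). Over all genes tested, 28.1% were higher and 37.7% lower. From 23 of 26 markers of mesenchyme, glia, endothelium, macrophages and erythroid cells, the share of RNA of other cells was estimated at 5.05%, 9.33% and 6.61% in HC control and, from 21 markers, at 2.96%, 4.78% and 5.72% in HC gentamicin. Reads on genes numbered 22400686–28152291 per replicate.

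The 250 bases before the transcription start are shown for 4 genes that differed between the populations, with Rbl1 and Cdkn2c lower and Cdkn2d and Rbl2 higher in HC. The sequences are those of RefSeq on GRCm38.p6, written 5′ to 3′ on the strand of the gene, and distances are from the RefSeq start. The gene spans given below come from another annotation, GENCODE. By those spans the Cdkn2c window lies wholly inside the gene and the Cdkn2d window partly, so these bases are not upstream of every annotated start. Capitals mark matches, on either strand, to the E2F motif TTCCCGC, its variant TTGGCGC, its variant TTCGCGC, or to the cell cycle homology region TTTGAA, an element used by the DREAM complex. No motif overlapped another.
Rbl1, chr2:157204535-157204784, minus strand: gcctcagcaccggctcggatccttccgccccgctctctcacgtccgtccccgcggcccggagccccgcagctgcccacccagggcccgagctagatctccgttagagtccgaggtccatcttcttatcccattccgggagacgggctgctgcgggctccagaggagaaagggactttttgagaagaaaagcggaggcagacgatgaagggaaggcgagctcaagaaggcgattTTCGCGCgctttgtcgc
Cdkn2c, chr4:109666757-109667006, minus strand: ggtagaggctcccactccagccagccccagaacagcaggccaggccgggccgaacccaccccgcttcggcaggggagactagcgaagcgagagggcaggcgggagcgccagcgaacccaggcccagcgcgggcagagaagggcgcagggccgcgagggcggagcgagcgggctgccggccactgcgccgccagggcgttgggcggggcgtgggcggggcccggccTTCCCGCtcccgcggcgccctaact
Cdkn2d, chr9:21291210-21291459, minus strand: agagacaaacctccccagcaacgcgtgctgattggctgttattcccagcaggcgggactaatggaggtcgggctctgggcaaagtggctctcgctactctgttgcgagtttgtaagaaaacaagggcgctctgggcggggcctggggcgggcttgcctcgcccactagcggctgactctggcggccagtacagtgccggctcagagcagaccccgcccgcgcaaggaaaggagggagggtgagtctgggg
Rbl2, chr8:91069807-91070056, plus strand: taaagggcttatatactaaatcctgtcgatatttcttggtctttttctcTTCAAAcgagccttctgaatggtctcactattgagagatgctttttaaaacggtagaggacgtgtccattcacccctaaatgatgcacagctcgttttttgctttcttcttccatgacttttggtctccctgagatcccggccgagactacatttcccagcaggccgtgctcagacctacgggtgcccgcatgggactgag
In the window of Rbl1 the E2F match began 17 bases before the start, and in 1 of the 2 windows of Cdkn2c it began 25 bases before it, while the other Cdkn2c window held neither motif. The window of Rbl2 held the cell cycle homology letters (as TTCAAA, from the other strand) 201 bases before the start, and that of Cdkn2d held neither motif. Windows were present for 7 of the 9 genes, 9 windows in all. An E2F match also lay in 1 of the Cdkn2a windows, 98 bases before the start, and a cell cycle homology match in that of Cdkn2b, at 161 bases. Among all 32851 windows of this length, 6.69% held an E2F match and 16.0% a cell cycle homology match. A match describes letters and not a bound site.

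In control cochleae the brakes divided into genes higher in HC and genes lower in HC. Cdkn2d, Rb1 and Rbl2 were higher in HC, by 3.89-fold, 2.65-fold and 1.37-fold, and Cdkn2c and Rbl1 were lower, by 3.97-fold and 2.87-fold. Thus 5 of the 8 genes tested met the criteria, 3 higher and 2 lower, where 65.8% of all genes tested did, 28.1% higher and 37.7% lower. The share of the 8 genes was near that background. Because these are bulk samples, fewer cells expressing a gene and less RNA of it per cell cannot be told apart. The median log2 difference was -0.42 over the 8 genes and -0.12 over all genes tested. Under scaling by the trimmed mean of M values (TMM) the latter became -0.015, and the 5 genes met the criteria in the same direction.

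**Figure D1:**
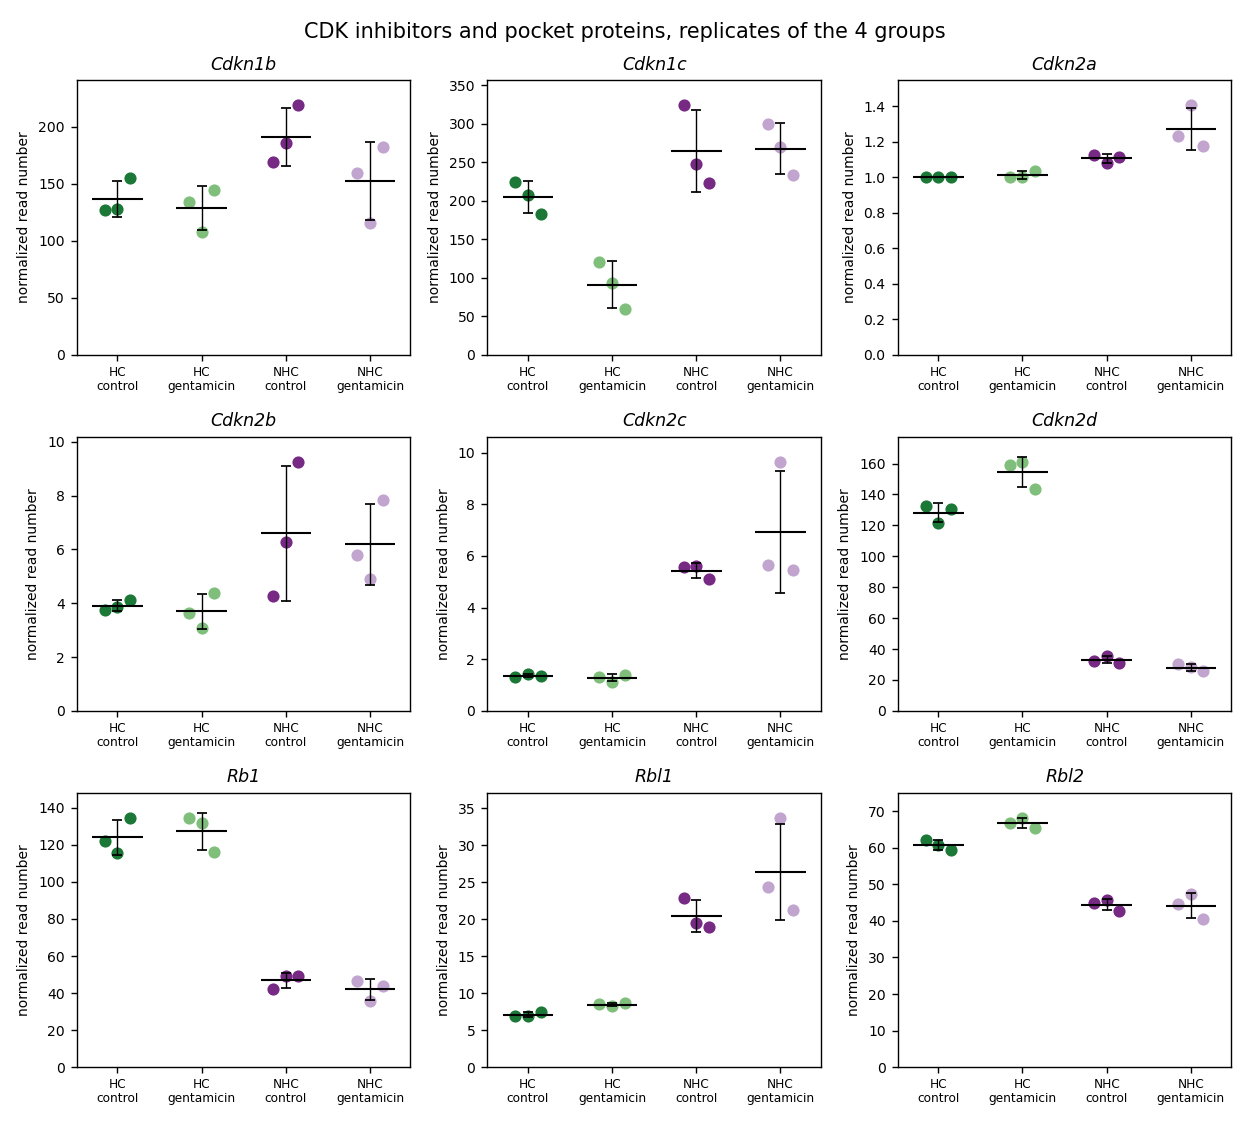
Normalized read number (y axis, linear, from 0) of the 9 genes in HC control, HC gentamicin, NHC control and NHC gentamicin, with 1 point per replicate and the mean ± SD of 3 replicates as lines. Cdkn2d, Rb1 and Rbl2 lie higher in both HC groups, Cdkn2c and Rbl1 lie higher in both NHC groups, and Cdkn1c is lowest in HC gentamicin at 59.7–120.4.

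Among the CIP/KIP inhibitors, Cdkn1b (p27Kip1), on chromosome 6 (134920401–134925513, GRCm38), was read at 127, 127 and 155 in HC control and at 169, 186 and 219 in NHC control. All HC control replicates lay below all NHC control replicates. The log2 difference of -0.48 (SE 0.17, limma adjusted p = 0.0231) missed the criteria at an unadjusted p of 0.0160. In these control groups same-numbered replicates deviated together, and with the replicate number as a block Cdkn1b met the criteria (limma adjusted p = 0.00236), as it did with these 2 groups fitted alone and after the estimated RNA of other cells was taken off. In 11 alternatives it missed them, among them TMM scaling, with a log2 difference of -0.36 (SE 0.17, limma adjusted p = 0.0794).

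Cdkn1c (p57Kip2), an imprinted gene on chromosome 7 (143458339–143461050), stood at 224, 207 and 182 in HC control and at 324, 247 and 223 in NHC control. The replicates of the populations overlapped, and the log2 difference was -0.36 (95% interval -0.85 to 0.13, limma adjusted p = 0.161). It met the criteria (limma adjusted p = 0.00778) in a fit of these 2 groups alone with the block, which was added after the data were seen, but not with the block over all 4 groups. Per kilobase of exon, Cdkn1c was the higher of the 2 genes in both control groups, at 105 ± 10.7 against 29.7 ± 3.53 for Cdkn1b in HC control and 136 ± 27.2 against 41.7 ± 5.59 in NHC control.

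Of the INK4 genes, Cdkn2d (p19Ink4d), on chromosome 9 (21288410–21291407), was read at 133, 121 and 130.5 in HC control and at 32.2, 35.5 and 31.3 in NHC control. The populations lay far apart, and the log2 difference was 1.96 (SE 0.08, limma adjusted p = 2.06e-09). Cdkn2c (p18Ink4c), on chromosome 4 (109660876–109667189), was the reverse, at 1.30, 1.43 and 1.37 in HC control and 5.59, 5.59 and 5.09 in NHC control. These are few reads, with 7, 10 and 8 in HC control and 111, 116 and 106 in NHC control. The log2 difference was -1.99 (SE 0.19, limma adjusted p = 2.13e-06), and with 0.1 in place of the added 1 it became -3.28. The 2 genes of the same family therefore differed between the populations in opposite directions.

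Cdkn2b (p15Ink4b) and Cdkn2a neighbour each other on chromosome 4, with 11645 bases between them. Cdkn2b (89306299–89311039) was read at 3.74, 3.87 and 4.13 in HC control and at 4.27, 6.27 and 9.26 in NHC control. Every HC control replicate was below every NHC control replicate, but the NHC replicates were spread widely and the log2 difference of -0.68 (SE 0.26, limma adjusted p = 0.0328) missed the criteria. It met them with the replicate block (limma adjusted p = 0.00956) and not with the block in the 2 groups alone. It also met them without NHC control replicate 1 (log2 difference -0.96) and after the estimated RNA of other cells was taken off (-0.84).

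Cdkn2a (89274471–89294653), whose locus encodes both p16Ink4a and p19Arf, which a value per gene cannot separate, was barely detected. It had 0 reads in each HC control replicate and 0, 0 and 1 in HC gentamicin, and a count of 0 allows up to 3 reads in a replicate. NHC control had 3, 2 and 3 reads and NHC gentamicin 6, 11 and 5. With 31 reads over the 12 replicates it was under the minimum of 100 reads, and no test is given.

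The pocket protein gene Rb1, on chromosome 14 (73183673–73325822), was read at 122, 116 and 134 in HC control and at 42.1, 49.3 and 49.3 in NHC control. The groups did not overlap, and the log2 difference was 1.41 (SE 0.11, limma adjusted p = 3.18e-07). Rbl2 (p130), on chromosome 8 (91070057–91123844), was higher in HC by less, at 62.1, 60.7 and 59.4 against 44.8, 45.7 and 42.7. Its log2 difference was 0.45 (SE 0.07, limma adjusted p = 7.65e-05). The annotated spans of Rcbtb2 and Lpar6 overlap that of Rb1 on the opposite strand, and Aktip overlaps Rbl2. Whether the counting used strand is not given in the sources used here, so reads from such overlaps could be assigned to either gene.

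Rbl1 (p107), on chromosome 2 (157145893–157204534), was lower in HC, at 6.95, 6.86 and 7.50 in HC control and 22.9, 19.4 and 18.95 in NHC control. The log2 difference was -1.52 (SE 0.16, limma adjusted p = 3.45e-06). Markers of dividing cells were lower in HC too, with all 6 of those listed meeting the criteria and a summed normalized read number of 13.3–21.8 in HC control against 261–293 in NHC control. Their part in the differences of Rbl1 and Cdkn2c was not tested. Over the 8 genes tested, the HC control and NHC control replicates did not overlap for 7, where this held for 79.1% of all genes tested.

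**Figure D2:**
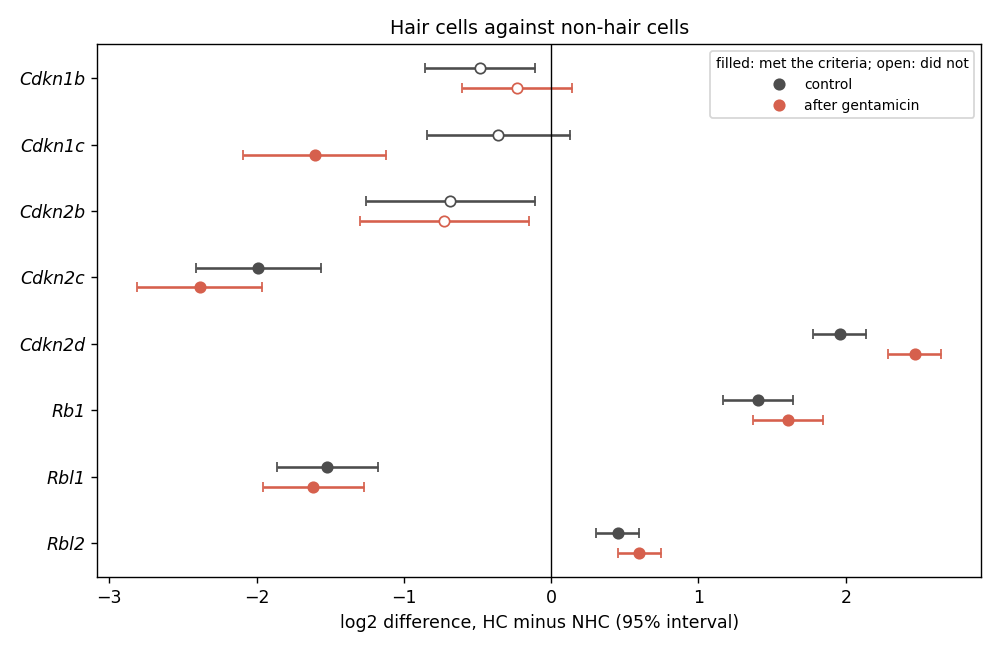
Log2 difference, HC minus NHC (x axis), of the 8 tested genes (y axis) in control cochleae (grey) and after gentamicin (red), with 95% intervals from limma and filled points for genes that met the criteria. Cdkn2d, Rb1 and Rbl2 lie right of 0, Cdkn2c and Rbl1 lie left of it, and Cdkn1c moves from -0.36 to -1.61.

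Set per kilobase of exon, so that genes can be compared with each other, the make-up of the pocket protein and INK4 families differed between the populations. Rb1 made up 66.3% ± 1.87 (SD, n = 3) of the pocket protein sum in HC control and 43.4% ± 3.31 in NHC control. Rbl1 made up 3.15% ± 0.0554 in HC control and 17.7% ± 2.27 in NHC control, and Rbl2 30.5% ± 1.90 and 38.9% ± 1.22. The replicates of the 2 populations did not overlap for any of these 3 shares. Cdkn2d held 97.5% ± 0.217 of the INK4 sum in HC control and 79.1% ± 5.43 in NHC control. Most of the remainder in NHC control was Cdkn2b, at 14.5% ± 6.06, and Cdkn2c, at 6.03% ± 0.673. The shares of Cdkn1b and Cdkn1c in their sum overlapped between the populations. Cdkn1c made up 77.8% ± 3.81 of it in HC control and 76.0% ± 5.70 in NHC control. Exon lengths are unions over annotated transcripts, which need not be the lengths used in these cells.

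**Figure D3:**
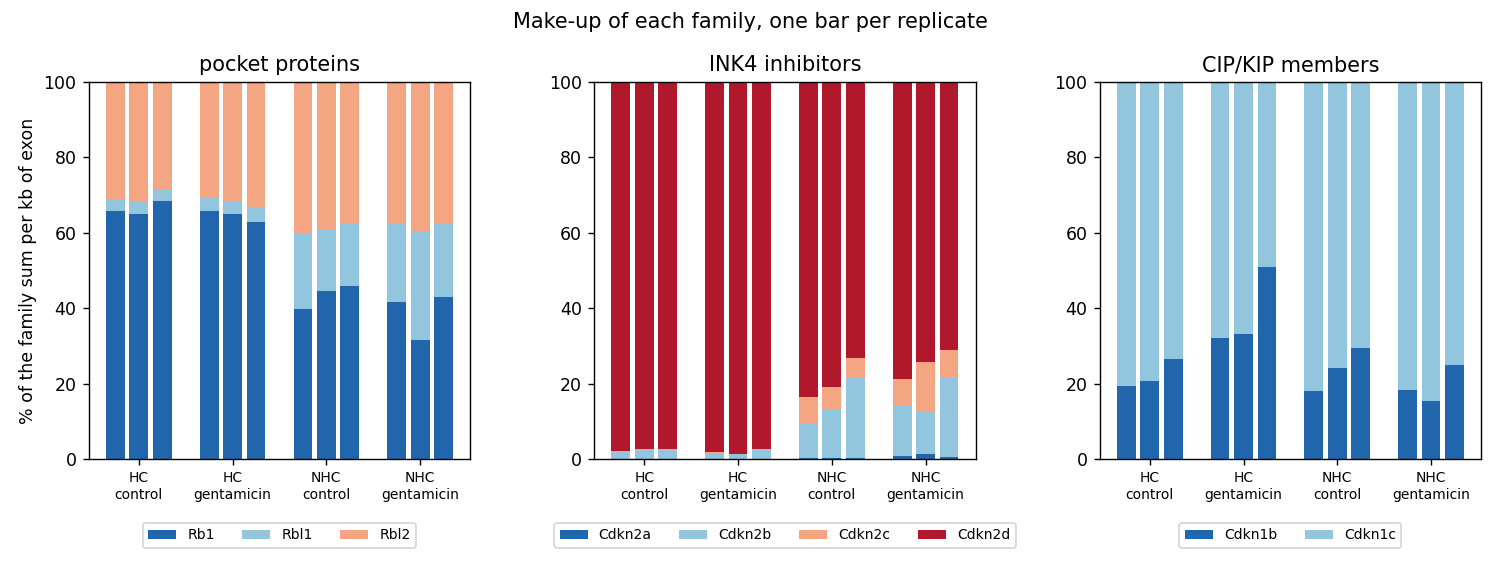
Share of each gene in the sum of its family (y axis, % of the normalized read number above 1 per kilobase of exon), with 1 stacked bar per replicate in the 4 groups for pocket proteins, INK4 inhibitors and the CIP/KIP genes Cdkn1b and Cdkn1c. Rb1 takes 64.9–68.4% of the pocket protein sum in HC control, and Cdkn1c falls to 49.0% of the CIP/KIP sum in 1 HC gentamicin replicate.

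After gentamicin the populations differed by the same 5 genes in the same directions, and by Cdkn1c as well. Thus 6 of 8 genes met the criteria, where 70.4% of all genes tested did. Cdkn1c was lower in HC gentamicin than in NHC gentamicin by a log2 difference of -1.61 (SE 0.22, limma adjusted p = 3.47e-05). The differences of Cdkn2d and Rb1 were 2.47 (SE 0.08) and 1.61 (SE 0.11), and those of Cdkn2c and Rbl1 -2.39 (SE 0.19) and -1.61 (SE 0.16). Rbl2 differed by 0.60 (SE 0.07). Cdkn2b, at -0.73 (limma adjusted p = 0.0238), missed the criteria here and met them with the replicate block.

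The next question was how the brakes responded to 3 h of gentamicin in hair cells. Cdkn1c fell by a factor of 2.33, Cdkn2d rose by 0.27 on the log2 scale, and the other 6 genes tested did not meet the criteria. So 2 of 8 genes changed, 1 up and 1 down, a share near the background of 27.5% of all genes tested, 12.7% up and 14.8% down. The median log2 difference was -0.026 over the 8 genes and -0.086 over all genes tested. Over all genes, 2037 rose and 2381 fell, and 2774 of 4365 rose under scaling by the total reads of a replicate, but the directions of Cdkn1c and Cdkn2d held under both scalings.

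Cdkn1c went from 224, 207 and 182 in HC control to 120.4, 92.6 and 59.7 in HC gentamicin. All 3 treated replicates lay below all 3 controls. The log2 difference was -1.22 (SE 0.22, limma adjusted p = 0.00198), it met the criteria in every alternative run, and leaving out 1 replicate at a time gave -1.45 to -0.95. In NHC the values were 324, 247 and 223 in control and 299.8, 269 and 233 after gentamicin, a log2 difference of 0.026 (95% interval -0.46 to 0.51, limma adjusted p = 0.965). The responses differed between the populations by -1.25 on the log2 scale (SE 0.31, limma adjusted p = 0.0253 for the interaction). That call was lost in 6 of the alternatives, where the adjusted p was 0.0545–0.0620: with no minimum of reads, and without HC control replicate 1 or 2, NHC control replicate 2 or 3, or NHC gentamicin replicate 1.

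Some markers of other cells also fell in HC, where 14.8% of all genes tested fell. Of 10 supporting cell markers, 3 fell after gentamicin (Gjb2, Hes1 and Lfng), none rose, and none was at 0. With the replicate number as a block 6 of the 10 fell, Cd44, Jag1 and Sox2 besides these, and under scaling by total reads 2 did, without Gjb2. Their sum was 2528, 2344 and 2867 in HC control and 1836, 1187 and 2408 in HC gentamicin. Among other cells' markers, 3 of 8 of mesenchyme, 2 of 5 of glia and 1 of 5 of endothelium fell. Mesenchyme had 4 with the block and 2 under scaling by total reads or TMM. It had 0 with the estimated RNA of other cells taken off, an estimate that used these same markers. Glia had 1, Foxd3, under each of these alternatives. No marker changed among 5 of macrophages, 3 of erythroid cells, 4 of neurons and 6 of dividing cells. In the order of the HC gentamicin replicates, the supporting cell sum was 1836, 1187 and 2408, and Cdkn1c was at 120.4, 92.6 and 59.7. The subtraction took off part of the mean NHC profile of the same treatment, at most 9.33% of it in a replicate. The size of that part came from mesenchyme, glia and other non-epithelial markers. Supporting cell markers summed to 2344–2867 in HC control and 2021–3483 in NHC control, so the subtraction left most of their signal in HC. Cdkn1c still fell after the subtraction (limma adjusted p = 0.00404), which cannot address supporting cell RNA. The part of supporting cell RNA was not tested.

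Cdkn2d went the other way, from 133, 121 and 130.5 in HC control to 159, 161 and 144 in HC gentamicin. The treated replicates lay above the controls by a narrow margin. The log2 difference was 0.27 (SE 0.08, limma adjusted p = 0.0274), with a fold change just above the threshold. The call was lost when HC control replicate 1, 2 or 3 or HC gentamicin replicate 1 or 2 was left out, with differences of 0.23–0.30 and unadjusted p of 0.0116–0.0337 from limma. In NHC the gene was read at 32.2, 35.5 and 31.3 in control and at 30.2, 28.2 and 25.5 after gentamicin, a log2 difference of -0.24 (SE 0.08, limma adjusted p = 0.184). The difference of the responses was 0.51 (SE 0.12, limma adjusted p = 0.0173 for the interaction), and without HC control replicate 2 its adjusted p was 0.0509. Cdkn1c and Cdkn2d were the 2 of 8 genes with an interaction at an adjusted p under 0.05, where 13.4% of all genes tested had one.

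The pocket protein genes of HC moved little. Rbl2 went from 62.1, 60.7 and 59.4 to 66.7, 68.2 and 65.4, a log2 difference of 0.14 (SE 0.07, limma adjusted p = 0.140). Under scaling by total reads the difference of Rbl2 was 0.23 (limma adjusted p = 0.0176), short of the fold threshold only. Rbl1 went from 6.95, 6.86 and 7.50 to 8.46, 8.20 and 8.70, a log2 difference of 0.25 (SE 0.16, limma adjusted p = 0.237). For both genes all treated replicates lay above all controls, but neither met the criteria. Rb1 stood at 122, 116 and 134 before and 135, 132 and 116 after gentamicin, overlapping, with a 95% interval of the log2 difference from -0.20 to 0.28. Groups did not overlap for 4 of the 8 genes (Cdkn2d, Rbl1 and Rbl2 above, Cdkn1c below), where this held for 54.8% of all genes tested.

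Cdkn1b, Cdkn2b and Cdkn2c overlapped between HC control and HC gentamicin. Cdkn1b was at 134, 107 and 145 after gentamicin, with a log2 difference of -0.091 (95% interval -0.47 to 0.28). Cdkn2b was at 3.64, 3.09 and 4.39, with -0.091 (95% interval -0.66 to 0.48). Cdkn2c was at 1.33, 1.13 and 1.39, from 8, 3 and 11 reads, with -0.097 (95% interval -0.52 to 0.33). These intervals leave room for changes of either sign, most widely for Cdkn2b. With Cdkn1c lower and Cdkn1b within its spread, the CIP/KIP sum of the 2 genes per kilobase went from 134 ± 7.57 to 74.3 ± 14.8 (SD, n = 3) in HC, and from 177 ± 22.3 to 170.5 ± 15.9 in NHC.

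**Figure D4:**
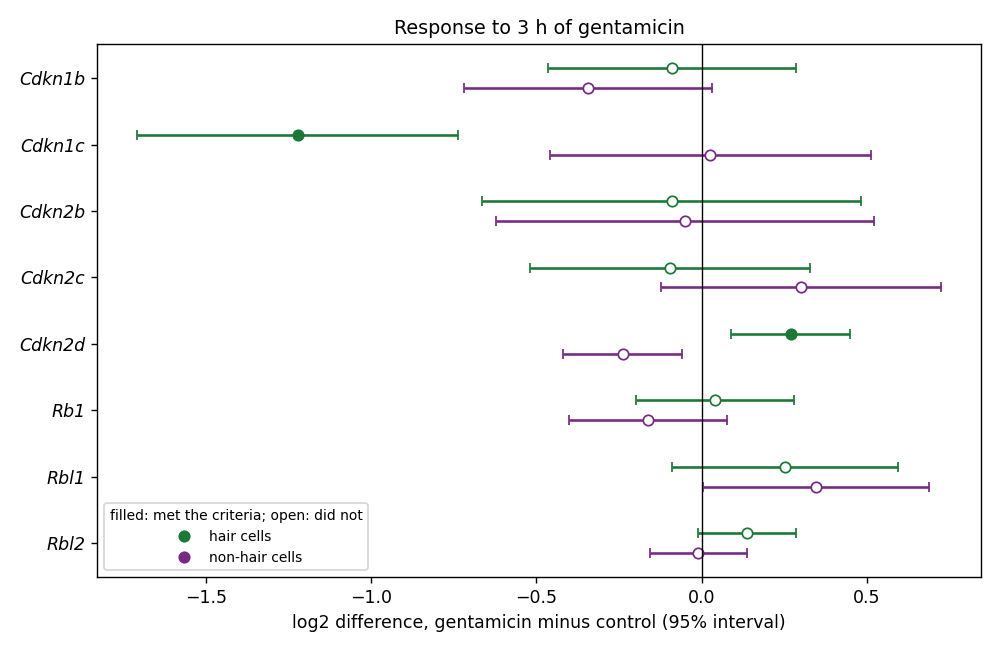
Log2 difference, gentamicin minus control (x axis), of the 8 tested genes (y axis) in HC (green) and NHC (purple), with 95% intervals from limma and filled points for genes that met the criteria. Cdkn1c in HC lies at -1.22 with an interval clear of 0, and the 2 intervals of Cdkn2d lie on opposite sides of 0.

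In non-hair cells 0 of the 8 genes met the criteria in limma after gentamicin, where 5.45% of all genes tested did, and 2 of the 8, Rbl1 and Cdkn2d, had a p under 0.05 before adjustment. Rbl1 was read at 22.9, 19.4 and 18.95 in NHC control and 24.3, 33.7 and 21.2 in NHC gentamicin, a log2 difference of 0.35 (SE 0.16, limma adjusted p = 0.287). Cdkn2c was read at 5.59, 5.59 and 5.09 and then 5.64, 9.66 and 5.46, a log2 difference of 0.30 (SE 0.19, limma adjusted p = 0.453). In both genes NHC gentamicin replicate 2 stood above the rest. The same replicate had the highest sum of dividing cell markers, at 422 against 239–293 in the other NHC replicates, and its part in these values was not tested.

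Cdkn1b in NHC was read at 169, 186 and 219 in control and 160, 115 and 182 after gentamicin, with a log2 difference of -0.34 (SE 0.17, limma adjusted p = 0.330). Rb1 stood at 42.1, 49.3 and 49.3 and then 46.5, 35.8 and 43.7, a log2 difference of -0.16 (SE 0.11, limma adjusted p = 0.472). NHC gentamicin replicate 2 was the lowest of the 12 NHC and HC replicates in Rb1 and the lowest NHC replicate in Cdkn1b. Cdkn2b, at 5.79, 4.90 and 7.85 after gentamicin, and Rbl2, at 44.6, 47.4 and 40.6, overlapped their controls. Of the 8 genes, Cdkn2d alone had groups that did not overlap, where this held for 17.7% of all genes tested. Without NHC gentamicin replicate 1, Cdkn2d met the criteria with a log2 difference of -0.30, and without replicate 3 Rbl1 did with 0.49.

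The partners of these brakes were read from 5 lists. Of 12 cyclin, CDK and inhibitor genes with Cdkn1a, 7 were lower in HC control than in NHC control and none was higher, where 37.7% of all genes tested were lower and 28.1% higher. Cdkn1a lost its call under TMM scaling and with the replicate block, which left 6 lower. The list had a median log2 difference of -0.73 against -0.12 over all genes tested. Ccnd2, a D-type cyclin that activates CDK4 and CDK6, was read at 9.17 ± 3.42 in HC control and 142 ± 44.5 in NHC control, and Ccna2, the cyclin of DNA replication, differed by -3.63 on the log2 scale. Cdk2, a target of p27Kip1 and p57Kip2, differed by -1.32. Of 14 E2F target genes, 13 were lower in HC, among them the replication helicase subunits Mcm3 (-2.86), Mcm5 (-2.57) and Mcm4 (-2.32). The exception was Cdc6, a replication licensing factor, which was higher in HC at 12.7 ± 1.41 against 5.44 ± 1.22.

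Of 10 E2F and DP genes, 3 were higher in HC (E2f2 at 1.84, with Tfdp1 and Tfdp2) and 3 were lower (E2f8 at -2.58, E2f7 at -2.45 and E2f6), shares close to the 28.1% and 37.7% of all genes tested. Under TMM scaling 5 were higher, with E2f3 and E2f4 added, and 2 lower, without E2f6. The median log2 difference of this list was 0.030. In the DREAM/MuvB list of 7 genes, Dyrk1a, the kinase that promotes assembly of the complex, was higher (0.47) and Lin37 lower (-0.47). Of 14 regulators of the brakes' levels, 2 were higher and 6 lower in HC, and under TMM scaling 5 were lower, without Skp2. Ubac1 (1.43), which with the also higher Rnf123 forms a ubiquitin ligase for p27Kip1, stood against Skp2 and Cks1b, parts of another p27Kip1 ligase, at -0.82 and -1.23. Foxo1, an activator of Cdkn1b, differed by -2.39, and Ezh2, a methyltransferase that silences the Cdkn2a and Cdkn2b locus, by -1.44.

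The same lists were then read after gentamicin in HC, where 12.7% of all genes tested rose and 14.8% fell. Of the 12 cyclin, CDK and Cdkn1a genes 2 fell, Ccnd2 from 9.17 ± 3.42 to 4.05 ± 0.554 and Cdk2 from 22.7 ± 3.36 to 12.9 ± 4.51 (SD, n = 3). With the estimated RNA of other cells taken off, Cdk2 still met the criteria. Ccnd2 then had a log2 difference of 0, because the estimate exceeded its whole value above 1 in every HC replicate. Its fall therefore cannot be told apart from less RNA of other cells. Ccne2 went up by 0.59 on the log2 scale (SE 0.21, limma adjusted p = 0.0464). It missed the criteria at an unadjusted p of 0.0149 and met them under scaling by total reads. With the block, Cdc25a rose and Ccnd1 fell besides Ccnd2 and Cdk2. Cdkn1a (p21Cip1), the remaining CIP/KIP inhibitor, was at 65.0, 81.5 and 84.0 in HC control and 67.3, 43.1 and 44.1 in HC gentamicin. One treated replicate overlapped the controls, and the log2 difference of -0.60 (SE 0.19, limma adjusted p = 0.0352) missed the criteria at an unadjusted p of 0.0102. Under TMM scaling Cdkn1a met them, at a p of 0.00990 from limma before adjustment. None of the 14 E2F target genes met the criteria, with a median log2 difference of 0.039.

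In the DREAM/MuvB list 2 of 7 genes rose and none fell. Lin54, the DNA-binding subunit of MuvB, rose from 18.2 ± 0.660 to 31.0 ± 1.26, and Dyrk1a from 105 ± 1.44 to 143 ± 7.60. Lin9 met the criteria as well with the RNA of other cells taken off or with the block, and under scaling by total reads so did Lin9 and Lin37, 4 of 7 in all. Bmi1 and Rnf2, subunits of the Polycomb complex that represses Cdkn2a, rose from 57.0 ± 8.68 to 96.5 ± 3.47 and from 48.6 ± 2.20 to 75.7 ± 5.48. Foxo4 fell by 0.57 on the log2 scale, and the other 11 regulators did not meet the criteria. Among these were Ezh2 (0.29, unadjusted p = 0.0894 from limma) and Cbx7 (-0.26, unadjusted p = 0.176 from limma). Foxo1 missed them narrowly, at -0.45 (unadjusted p = 0.0109 from limma), and met them with the RNA of other cells taken off. Cul1 met them there and under scaling by total reads. Of the 10 E2F and DP genes, E2f6 rose (0.38) and E2f5 (-0.42) and Tfdp2 (-0.39) fell.

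**Figure D5:**
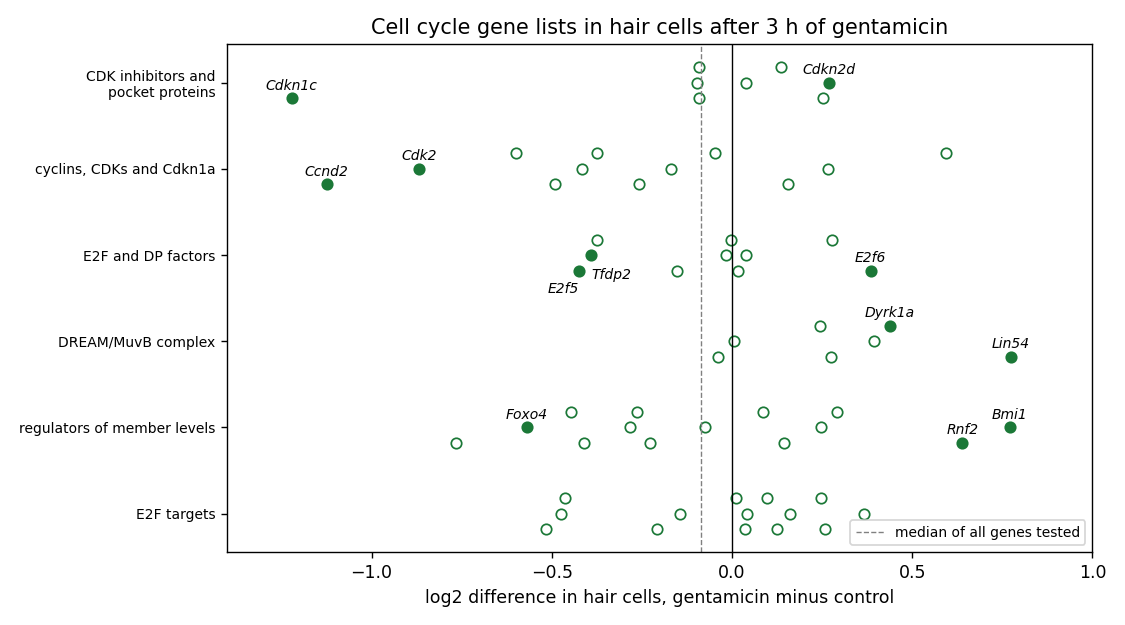
Log2 difference in HC, gentamicin minus control (x axis), for the tested genes of the 6 lists (y axis, points spread vertically within a list for legibility), with filled and named points for genes that met the criteria and the median of all genes tested, -0.086, as a dashed line. Cdkn1c, Ccnd2 and Cdk2 lie furthest left among the named points, and no E2F target is filled.

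In NHC, 1 gene of these 5 lists (12, 10, 7, 14 and 14 genes) met the criteria after gentamicin, where 5.45% of all genes tested did. This was Mcm6, which went from 65.9 ± 12.5 to 94.2 ± 23.1 (SD, n = 3). Its call held under scaling by total reads but was lost under TMM scaling, with the block and with the RNA of other cells taken off. The interaction of treatment and population had an adjusted p under 0.05 in limma for Cdk6, with a log2 value of -0.84, for Dyrk1a (0.37), Lin54 (0.76), Bmi1 (0.55), Rnf2 (0.59) and Rnf123 (-0.31), where 13.4% of all genes tested had one. That of Cdk6 was lost under both other scalings, with the RNA of other cells taken off and with the block, where Ccnd1 had one instead, and that of Rnf123 under both other scalings. Those of Dyrk1a, Lin54, Bmi1 and Rnf2 held under these 4 alternatives. For Ccnd2 and Cdk2 the interaction missed it, at adjusted p of 0.0736 and 0.0934.

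The genes most like each brake were taken as those with the smallest root mean square difference of centred log2 values over the 12 replicates, among 13820 genes. For Rbl1 these were Cenpk (0.0859), Traip (0.102) and Hells (0.104), and for Cdkn2c they were Rrm1 (0.101), Incenp (0.118) and Zfp423 (0.128). For Cdkn2d they were Stxbp4 (0.10), Plekho1 (0.10) and Meig1 (0.114), for Rb1 Prepl (0.0841), Sccpdh (0.0843) and Senp2 (0.0998), and for Rbl2 Noc2l (0.0462), Fam53c (0.0526) and Zfp341 (0.0535). Cdkn1c had less close neighbours, with Sfxn5 at 0.220, Gm3002 at 0.227 and Eef1a1 at 0.260. Those of Cdkn1b were Slc9a7 (0.121), Fam188a (0.132) and Spire2 (0.150), and those of Cdkn2b included Fam46c (0.107) and F11r (0.132). Replicates of 1 population share its cell make-up, so the measure is a description of these 12 replicates.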

How the data were processed

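Polyadenylated RNA of sorted cochlear cells was sequenced in 4 groups of 3 replicates. Per the methods of the study, 50 bp single-end reads were trimmed, aligned to mm10 with TopHat 2 in PartekFlow and normalized. The authors deposited a normalized score per gene and replicate. The methods name RPKM as the unit, yet gene length was not divided out of the deposited scores: with the offset of 1 taken off and divided by each replicate's smallest step, 74.2–75.7% of the low values were whole reads within 0.05. The scaling factor is not given in the sources used here, and no count model was used.

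Tests covered the 16088 of 23420 genes whose recovered reads summed to 100 or more over all 12 replicates. The model was limma 3.58.1 on log2 scores (R 4.3.3, 4 group means, empirical Bayes with trend), and an interaction was called where its adjusted p was under 0.05. The procedure was tested on simulated data. Recovered reads numbered 22400686–28152291 per replicate, with a median of 25116597. They carry no molecular identifiers, so the limit of 3 reads given for a count of 0 covers counting error only.

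Replicate numbers came from the column headers. In the 2 control groups same-numbered replicates deviated together (correlations of 0.200–0.316, against -0.270 to -0.0550 for different numbers), so the replicate number was used as a block in an alternative. That alternative was fitted over all 4 groups and read for every comparison. Other alternatives were TMM and total read scaling, 0.1 as offset, no minimum or 1000 reads as minimum, 2 groups alone, subtraction of the estimated RNA of other cells, and each replicate left out in turn. The RNA subtracted was the estimated share of the mean NHC profile of the same treatment. The block in 2 groups alone was added after the data were seen.

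The 9 genes and all lists were chosen with earlier results of these data known. All 9 are named, with at most 3 genes per list and comparison that met the criteria with the largest log2 difference, Cdkn1a, and the 3 most similar genes per gene with a score of at least 5 in 1 group. A gene among the last is not reported here. Some genes were named after their values were seen. These were Tfdp1, E2f3, E2f4, Cdc6, Mcm6, Cdk6, Ccnd1, Ccne2, Cdc25a, Lin9, Rnf123, Skp2, Cks1b, Cul1 and Cbx7, the marker genes and the neighbours of Cdkn1c. Positions and exon lengths are those of GENCODE M21, and promoters those of RefSeq. Tables used Python 3.11.15, numpy 2.4.6 and pandas 2.3.3, and plots matplotlib 3.10.9. Quantitative PCR and imaging were not analysed here.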

Additional observations from a re-analysis of the deposited data

Results flagged for a closer look

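Cdkn1c was singled out because its response to gentamicin differed between the populations by a test of the difference itself. The response in hair cells minus that in non-hair cells was -1.25 on the log2 scale (SE 0.31, limma adjusted p = 0.0253 for the interaction), with a fall in 3 of 3 treated hair cell replicates below all controls and overlapping groups in non-hair cells. The call of this interaction was lost in 6 of the alternatives, with a limma adjusted p of up to 0.0620.

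Cdkn2d was singled out by the same test, with a difference of 0.51 (SE 0.12, limma adjusted p = 0.0173 for the interaction). Its 3 treated hair cell replicates lay above all hair cell controls, and its 3 treated non-hair cell replicates lay below all non-hair cell controls. The call of this interaction was lost in 1 of the alternatives.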

How the results depend on the processing

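Of 603 values recomputed under the alternatives for the 8 genes tested, 558 kept their direction and their side of the threshold, 11 passed it only in the alternative, 12 fell short of it, and 22 turned in sign, none of them a value that had met the criteria. In hair cells after gentamicin the turned values were Cdkn1b under total read scaling (0.0058) and Cdkn2c after subtraction (0.015), and, leaving out 1 replicate at a time, Cdkn1b (-0.18 to 0.034), Cdkn2b (-0.22 to 0.032) and Rb1 (-0.0094 to 0.10). In non-hair cells they were Rbl2 under total read scaling (0.013) and, by replicate, Rbl2 (-0.062 to 0.050), Cdkn1c (-0.089 to 0.18) and Cdkn2b (-0.33 to 0.23). For the interaction they were Cdkn2b under total read scaling (0.011) and after subtraction (0.017), Rbl1 after subtraction (0.0070) and, by replicate, Cdkn2b (-0.32 to 0.24) and Rbl1 (-0.24 to 0.096). The cause was not tested. The count of genes that met the criteria in non-hair cells, 876, became 383 with 2 groups fitted alone, which has fewer samples, and 411–1571 with 1 replicate left out (1367 without control replicate 1, 411 without control replicate 2, 458 without gentamicin replicate 2, 1571 without gentamicin replicate 3). The 2158 interactions became 1160–2377, with the lowest counts without hair cell control replicate 2 (1160) or 1 (1374), hair cell gentamicin replicate 2 (1254), non-hair cell control replicate 2 (1289) or non-hair cell gentamicin replicate 1 (1431). With the replicate number as a block, 10673 genes differed between the control populations against 10585 without it, 4620 changed in hair cells, 878 in non-hair cells, and 2304 had an interaction. Beyond the control groups the labels do not say what same-numbered replicates share. Their correlations were 0.037 to 0.052 between the hair cell groups, -0.23 to 0.68 between the non-hair cell groups and -0.039 to 0.38 between the gentamicin groups. For different numbers they were -0.078 to 0.044, -0.75 to 0.57 and -0.34 to 0.20. Outside the control comparison the block changed the call of Cdkn2b between the populations after gentamicin and of no other of the 8 genes. Depth limits Cdkn2a and, in hair cells, Cdkn2c, whose difference from non-hair cells depends on the offset.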

Other observations

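Neighbours of the imprinted Cdkn1c within 500000 bases were read as well, chosen after their values were seen. Gentamicin moved 5 of the 18 tested past the criteria in hair cells, or 27.8%, against 27.5% over all genes tested. Cd81 (-0.49), Osbpl5 (-0.38) and Dhcr7 (-0.48) fell and Tssc4 (0.46) and Nadsyn1 (0.36) rose, in log2 differences. Kcnq1ot1, the noncoding RNA of the same imprinted cluster, went from 130.02 to 102.36 (log2 difference -0.35, SE 0.14, limma adjusted p = 0.0697) and did not meet the criteria. Phlda2, another imprinted gene beside Cdkn1c, was at 1.13 and 1.29, near the value of a gene without reads, and Nap1l4 was at 171 and 169.8.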
